A study of Arabidopsis thaliana with 12 samples.

Results

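The comparison described here is the genotype by abscisic acid (ABA) interaction in germinating seeds of Arabidopsis thaliana: whether the response to ABA in seeds with less SPLAYED (SYD) differed from the response in a control line. It uses all 12 of the 12 libraries of the series, in 6 groups of 2. The SYD lines are amiR-SYD-1 and amiR-SYD-2, called SYD1 and SYD2, which carry artificial microRNAs against SYD, and the control is amiR-HsMYO, called HsMYO, also named as an artificial microRNA line, which the labels mark as the wild-type control. Each line had 2 libraries from seeds sown on medium with 2 µM (±)-ABA and 2 from seeds sown on medium with 0.002% ethanol, the solvent control, called "without ABA" here. All seeds spent 3 days in the cold and dark on this medium and then 24 h in long days before RNA was taken. What promoter drives the microRNAs, how many seeds made a library and whether each name stands for 1 transgenic line, the sources used here do not give. The quantity tested for each gene was the mean ABA response of SYD1 and SYD2 minus the ABA response of HsMYO, where a response is the log2 ratio of ABA over ethanol. Positive differences mean a response that lay higher in the SYD lines, which for a gene that ABA lowers is a smaller fall, no fall or a rise.

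ABA is the plant hormone that holds seeds dormant and arrests germination. It binds PYR/PYL/RCAR receptors, which then block clade A PP2C phosphatases, so that SnRK2 kinases stay active and phosphorylate transcription factors such as ABI5. Many of these factors bind promoter elements that contain the letters ACGTG. Gibberellin, made by GA3-oxidases among other enzymes, works against ABA and drives the growth of the embryo. SYD is an ATPase of the SWI/SNF family of chromatin remodelers, which slide or evict nucleosomes and so change the access of such factors to DNA.

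The 250 bases before the annotated start of 4 genes are shown because each gene had the lowest p among the genes of its class with a difference of at least 1 on the log2 scale and a gene symbol, the classes being those described below. They were read from the TAIR10.1 genome (RefSeq), 5′ to 3′ on the strand of the gene, and capitals mark ACGTG. TBL38 lies on the minus strand with this window at chr1:10139229-10139478, CER1 on the plus strand with chr1:418166-418415, AATP1 on the minus strand with chr5:16021917-16022166 and PIF3 on the plus strand with chr1:3075518-3075767.
TBL38: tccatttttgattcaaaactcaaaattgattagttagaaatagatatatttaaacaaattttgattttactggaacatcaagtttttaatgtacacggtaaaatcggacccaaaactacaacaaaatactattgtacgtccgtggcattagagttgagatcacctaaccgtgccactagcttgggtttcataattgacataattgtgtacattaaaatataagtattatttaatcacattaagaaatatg
CER1: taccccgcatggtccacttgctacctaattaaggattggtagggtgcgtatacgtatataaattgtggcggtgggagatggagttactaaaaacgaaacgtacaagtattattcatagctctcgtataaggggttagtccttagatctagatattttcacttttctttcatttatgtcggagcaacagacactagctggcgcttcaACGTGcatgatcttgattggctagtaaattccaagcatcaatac
AATP1: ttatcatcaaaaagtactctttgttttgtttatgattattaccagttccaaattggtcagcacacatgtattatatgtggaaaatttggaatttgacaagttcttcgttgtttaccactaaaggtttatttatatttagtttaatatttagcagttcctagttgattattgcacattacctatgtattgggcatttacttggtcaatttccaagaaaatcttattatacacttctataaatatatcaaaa
PIF3: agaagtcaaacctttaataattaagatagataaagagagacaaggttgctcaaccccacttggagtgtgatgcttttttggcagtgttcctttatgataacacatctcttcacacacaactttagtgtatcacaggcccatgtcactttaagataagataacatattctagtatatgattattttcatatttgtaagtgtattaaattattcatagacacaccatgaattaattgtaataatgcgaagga
ACGTG, searched on both strands, occurred 1 time in the CER1 window and in none of the other windows, where its absence says only that these letters are not in these 250 bases. The CER1 match overlaps a match to CATGCA, a second motif searched on both strands. Among all genes tested that had such a window, 4629 of 19380 (23.9%) held ACGTG, as did 7190 of 33054 (21.8%) windows of the whole annotation. Of the genes whose ABA response differed between the SYD lines and HsMYO, 340 of 1004 (33.9%) held it. By class the share was 39.7% (96 of 242) for smaller rises, 32% (141 of 441) for smaller falls, 41.2% (28 of 68) for larger rises, 26.8% (53 of 198) for larger falls and 40% (22 of 55) for reversed responses. For comparison, 26.7% of the genes that ABA raised and 25.2% of those that ABA lowered in HsMYO held it. CATGCA occurred in 11.5% of the windows of the differing genes and in 7.62% of those of all genes tested. TTGAC, the core of the W-box, occurred in 46.3% and 44.5% of them. These shares describe the letters and no binding was measured.

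Libraries held 18713555 to 30012796 counts. Counts of the 2 libraries of a group differed by more than sampling noise in every group, with a chi-square per degree of freedom between 2.4 in SYD1 on ABA and 13.31 in HsMYO on ABA. The labels call them biological replicates but do not say whether they came from separate seed lots, so the p-values measure the spread between these libraries. Genes of seed reserves and their use marked the libraries as germinating seed: ICL, isocitrate lyase of the glyoxylate cycle, lay between 16350 and 29550 CPM (counts scaled to a library of 1e+06) in every library. SYD itself had 144 and 153 CPM in SYD1 and 126 and 147 CPM in SYD2 on ABA, against 196 and 229.7 CPM in HsMYO on ABA. Without ABA it had 101 and 108 CPM in SYD1 and 98.6 and 108 CPM in SYD2, against 185 and 178 CPM in HsMYO. Every SYD1 and SYD2 library lay below every HsMYO library, on either medium. The ABA response of SYD was 0.51 in SYD1 and 0.40 in SYD2, against 0.23 in HsMYO, and the difference of the response was 0.23 ± 0.11 (SE, adjusted p = 0.28).

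The ABA response differed between the SYD lines and HsMYO in 1008 of 19612 genes tested (5.14%) at an adjusted p under 0.05 by edgeR's quasi-likelihood test. The response lay higher in the SYD lines for 527 genes (2.69%) and lower for 481 (2.45%), and 290 of the 1008 differed by at least 2-fold. Genes that ABA lowered in HsMYO were among them more often, with 557 of 5322 (10.5%), than genes that ABA raised, with 316 of 5272 (5.99%); ABA lowered 27.1% and raised 26.9% of all genes tested in HsMYO, 54% in all. This difference in share was not tested. A smaller response was found for 686 genes (68.1% of the 1008): 442 genes that fell in HsMYO, called smaller falls, and 244 that rose in HsMYO, called smaller rises, had a SYD mean nearer to 0. The SYD mean had the sign opposite to HsMYO in 49 of the smaller falls and 47 of the smaller rises, without passing the test for a response of its own. A larger response was found for 266 genes (26.4%), of which 198 fell (larger falls) and 68 rose (larger rises) in the SYD mean. The response had opposite signs for 56 genes (5.56%), with both signs called. Among the genes with larger responses, HsMYO had no called response of its own in 100 of the 198 that fell and in 35 of the 68 that rose. The classes describe the fitted values and have no test beyond that of the difference.

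**Figure D1:**
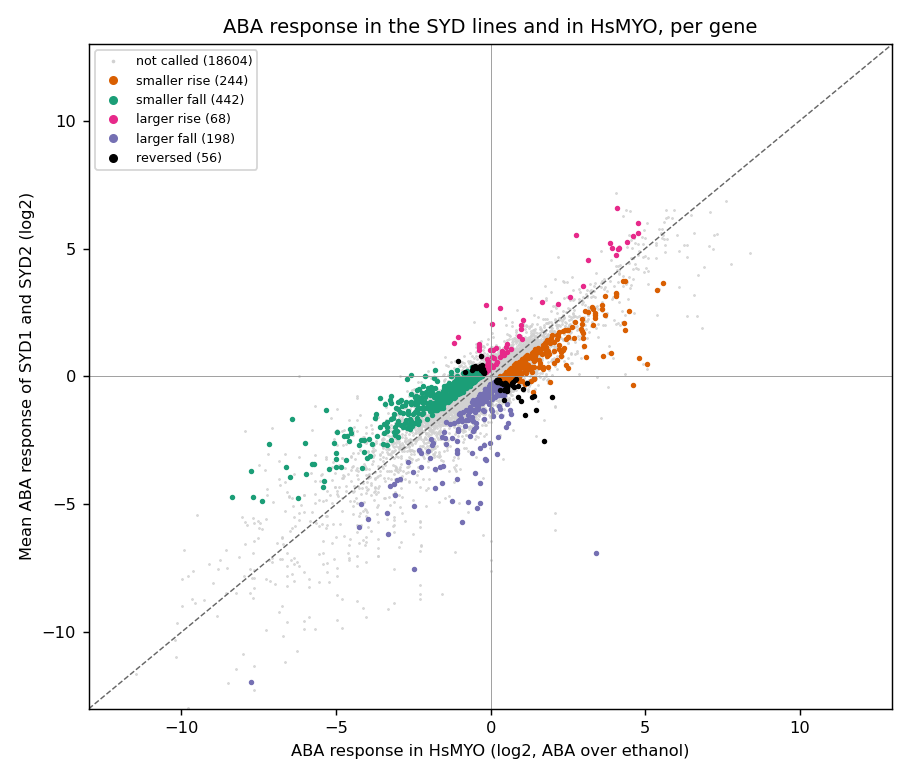
The mean ABA response of SYD1 and SYD2 (vertical axis, log2 of ABA over ethanol) is plotted against the response in HsMYO (horizontal axis, log2) for each gene tested; colours mark the classes of the 1008 genes whose response differed, grey marks the other genes and the dashed line marks equal responses. Of the 442 smaller falls, which lie above the line, 393 are at the lower left and 49 at the upper left, and of the 244 smaller rises, which lie below it, 197 are at the upper right and 47 at the lower right, while all 56 reversed genes are at the upper left or lower right.

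These counts depended on single libraries. Without HsMYO ethanol replicate 1 the number of differing genes was 540, and without HsMYO ABA replicate 1 it was 1584. The smaller responses then numbered 390 and 1150, and 417 without HsMYO ethanol replicate 2. Larger responses numbered 119 without HsMYO ethanol replicate 1 and 163 without SYD1 ABA replicate 1. The reversed genes numbered 30 without HsMYO ethanol replicate 1, 86 without HsMYO ABA replicate 1, 37 without SYD1 ABA replicate 1, 37 without SYD1 ethanol replicate 2 and 36 without SYD2 ABA replicate 1. Responses that lay higher in the SYD lines numbered 294 without HsMYO ethanol replicate 1, 918 without HsMYO ABA replicate 1 and 341 without HsMYO ABA replicate 2. Responses that lay lower numbered 246 without HsMYO ethanol replicate 1, 318 without HsMYO ethanol replicate 2 and 280 without SYD1 ABA replicate 1. Among libraries without ABA, HsMYO ethanol replicate 1 had the highest level of 3 seed transcripts, though other replicates also lay apart. CRA1, a seed storage protein, had 110.5 CPM in HsMYO ethanol replicate 1 and 33.3 CPM in replicate 2. The SYD lines without ABA had 35.0 to 71.7 CPM of CRA1, and these extremes were the 2 SYD1 libraries. OLEO1, an oil body protein, had 17.35 CPM in HsMYO ethanol replicate 1 and 5.35 CPM in replicate 2. The SYD lines without ABA had 3.41 to 14.5 CPM of OLEO1, with 14.5 and 3.91 CPM in SYD1. EPR1, an extensin-like gene of the endosperm, had 3894 CPM in HsMYO ethanol replicate 1 and 2349 CPM in replicate 2. In SYD2 without ABA EPR1 had 3122 and 1786 CPM. Across the groups other than HsMYO without ABA, EPR1 ranged from 1786 CPM in SYD2 ethanol replicate 2 to 3715 CPM in SYD2 ABA replicate 1. The part of these transcripts in the counts was not tested.

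Whether the lines differed on ABA, without ABA or in both media was read from the same fit, since the difference of the response equals the line difference on ABA minus the line difference without ABA. Background rates were high: the SYD lines differed from HsMYO in 6401 genes (32.6%) on ABA and in 6311 genes (32.2%) without ABA. Of the 1008 genes, 327 differed on ABA only, 293 differed without ABA only, 383 differed in both media and 5 in neither. In 107 of the 383 the line difference had opposite signs in the 2 media, and in 276 it had the same sign and unequal size. By size alone, the line difference was at least 2 times as large on ABA in 427 genes, at least 2 times as large without ABA in 342 genes and neither in 239.

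The medium in which the lines differed varied with the class. Part of this follows from the sorting, because the class fixes the sign of the difference of the response. In smaller falls and larger rises the line difference on ABA must lie above that without ABA. In smaller rises and larger falls it must lie below. The directions given here are thus not separate evidence. Among smaller falls, 216 of 442 differed on ABA only and 66 without ABA only, and the SYD lines stood above HsMYO on ABA in 362 of the 442; the median line difference on ABA was 0.71. Among smaller rises, 109 of 244 differed without ABA only and 37 on ABA only, and the SYD lines stood above HsMYO without ABA in 196 of the 244; the median line difference was 0.56 without ABA and -0.08 on ABA. Larger rises had the other sign without ABA, where 52 of 68 stood lower in SYD1 and SYD2 than in HsMYO without ABA, and the median line difference was -0.63 without ABA and 0.03 on ABA. Larger falls were split, with 120 of 198 higher in the SYD lines without ABA and 102 of 198 lower on ABA. Reversed genes were also split, with 16 of 56 on ABA only, 17 without ABA only and 23 in both media. Differences on ABA only numbered 202 without HsMYO ABA replicate 2 and 581 without HsMYO ABA replicate 1. Differences without ABA only numbered 122 without HsMYO ethanol replicate 1, 191 without HsMYO ethanol replicate 2, 195 without SYD1 ABA replicate 1 and 486 without HsMYO ABA replicate 1. Differences in both media numbered 190 without HsMYO ethanol replicate 1 and 241 without HsMYO ethanol replicate 2.

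**Figure D2:**
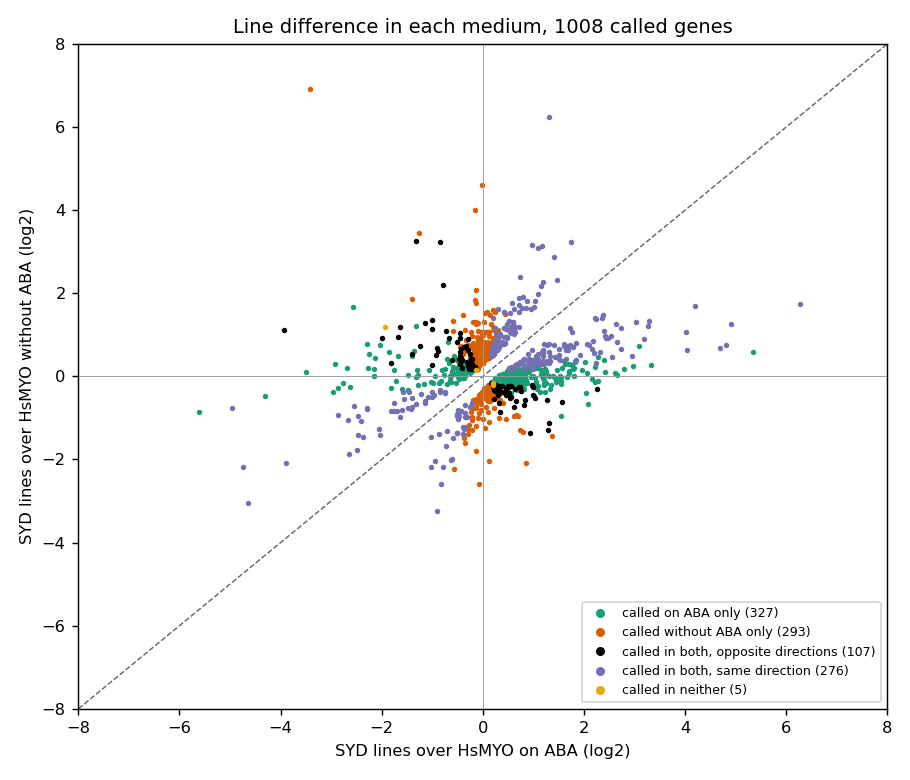
The line difference, SYD lines over HsMYO (log2), is plotted on ABA (horizontal axis) and without ABA (vertical axis) for the 1008 genes, coloured by the medium in which it was called; the dashed line marks equal differences, where the ABA responses would not differ. The 327 genes called on ABA only spread along the horizontal axis and the 293 called without ABA only spread along the vertical axis.

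**Figure D3:**
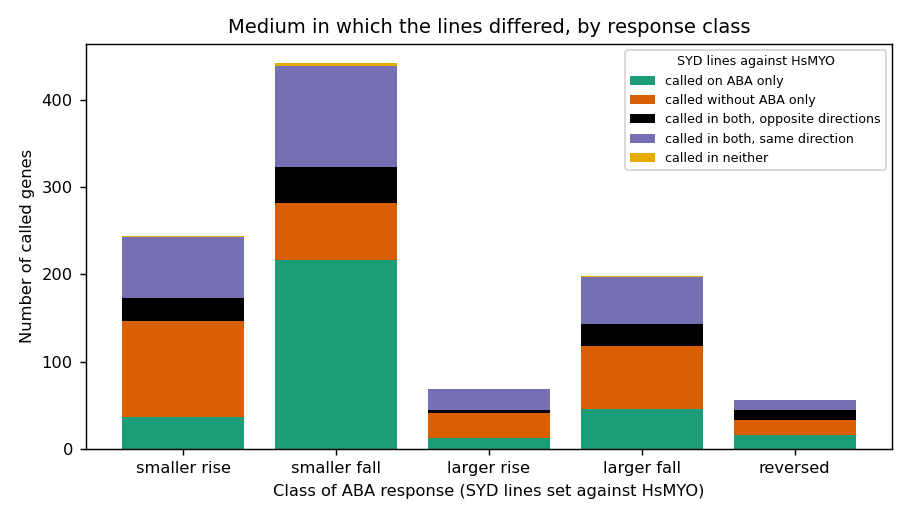
Each bar gives the number of genes in a class of ABA response, divided by the medium in which the SYD lines differed from HsMYO. In smaller falls the largest share is of genes called on ABA only (216 of 442), while in smaller rises the largest share is of genes called without ABA only (109 of 244).

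Smaller falls included genes that make and export the plant cuticle, the waxy and cutin-coated outer surface. Of 20 genes tested in a list of cuticle, cutin and wax genes, 9 had a response that lay higher in the SYD lines and none lower (45%, against 5.14% of all genes). This list and the other lists below, like their members, were chosen with earlier results of these data known. Their shares are therefore not independent evidence. The median difference was 0.37 over the list and -0.02 over all genes tested, and 19 of the 20 differences were positive. ABA lowered 17 of the 20 in HsMYO. CER1, which forms wax alkanes, had 93.4 and 92.0 CPM in SYD1 and 105 and 108 CPM in SYD2 on ABA, against 40.2 and 35.9 CPM in HsMYO on ABA. Without ABA CER1 had 382 and 383 CPM in SYD1 and 412 and 379 CPM in SYD2, against 401 and 378 CPM in HsMYO. The SYD libraries on ABA did not overlap the HsMYO libraries on ABA, whereas the libraries without ABA overlapped across the 3 lines. The ABA response of CER1 was -2.05 in SYD1 and -1.90 in SYD2, against -3.35 in HsMYO, and the difference was 1.38 ± 0.09 (SE, adjusted p = 2.5e-06). The line difference for CER1 was 1.38 ± 0.07 (SE, adjusted p = 2.2e-09) on ABA, with an adjusted p of 0.99 without ABA.

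CER2, which acts in the elongation of very long fatty acids, had 12.4 and 10.6 CPM in SYD1 and 11.7 and 10.7 CPM in SYD2 on ABA, against 2.69 and 1.85 CPM in HsMYO on ABA. Without ABA CER2 had 26.1 and 22.9 CPM in SYD1 and 22.6 and 19.4 CPM in SYD2, against 15.9 and 14.4 CPM in HsMYO. Its SYD libraries lay above its HsMYO libraries in both media, by more on ABA. The difference of the response of CER2 was 1.73 ± 0.19 (SE, adjusted p = 0.0001). CYP96A15, the midchain alkane hydroxylase MAH1, had 1.79 and 1.66 CPM in SYD1 and 1.68 and 2.06 CPM in SYD2 on ABA, against 0 and 0.0370 CPM in HsMYO on ABA. This is 1 count over both HsMYO libraries on ABA, against 71 counts in SYD1 and 83 in SYD2, so that the ratio of SYD1 over HsMYO on ABA was 97.6 with an exact 95% counting interval of 17 to 3910, and that of SYD2 over HsMYO was 106 with an interval of 18.5 to 4230. The intervals cover counting error only. Without ABA CYP96A15 had 11.6 and 11.5 CPM in SYD1 and 9.88 and 11.6 CPM in SYD2, against 3.49 and 3.19 CPM in HsMYO. The SYD libraries lay above HsMYO in both media, and the fitted difference of 4.54 ± 0.64 (SE, adjusted p = 0.00061) depends on the prior count of the fit.

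Among the other called cuticle genes, DCR (listed as PEL3), an acyltransferase of cutin synthesis, differed by 0.97 ± 0.15 (SE, adjusted p = 0.0014), and CUT1 (KCS6), a wax elongase, by 0.61 ± 0.10 (SE, adjusted p = 0.0021). BDG1, an extracellular protein needed for cuticle formation, differed by 0.51 ± 0.08 (SE, adjusted p = 0.0016). DCR had 20.6 and 17.65 CPM in SYD1 and 20.8 and 20.4 CPM in SYD2 on ABA, against 18.8 and 12.8 CPM in HsMYO on ABA. Without ABA DCR had 49.9 and 45.5 CPM in SYD1 and 47.5 and 45.9 CPM in SYD2, against 77.6 and 70.0 CPM in HsMYO. HsMYO was thus the highest line without ABA, and on ABA its libraries overlapped those of SYD1. LACS2, a long-chain acyl-CoA synthetase of cutin synthesis, differed by 0.35 ± 0.09 (SE, adjusted p = 0.041), GPAT8, a glycerol-3-phosphate acyltransferase of cutin synthesis, by 0.76 ± 0.21 (SE, adjusted p = 0.049) and ABCG11, an exporter of cuticle lipids, by 0.40 ± 0.10 (SE, adjusted p = 0.029). These 3 calls were weak: without HsMYO ethanol replicate 1 the adjusted p was 0.16 for LACS2, 0.14 for GPAT8 and 0.18 for ABCG11, and 6 of the list remained called. Without HsMYO ABA replicate 2 it was 0.15, 0.22 and 0.097 in the same order of genes. GPAT8 differed by 0.50 without that library. It was called without HsMYO ABA replicate 1, SYD1 ABA replicate 2 or SYD2 ethanol replicate 1 and lost its call without any other single library. LACS2 kept its call without those libraries or SYD1 ethanol replicate 1 and lost it without any other. ABCG11 also lost its call without SYD1 ABA replicate 1 (0.052), SYD1 ethanol replicate 2 (0.068) or SYD2 ABA replicate 1 (0.069). The 11 list members that were not called had differences between -0.14 and 0.89, and 10 of them were positive.

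**Figure D4:**
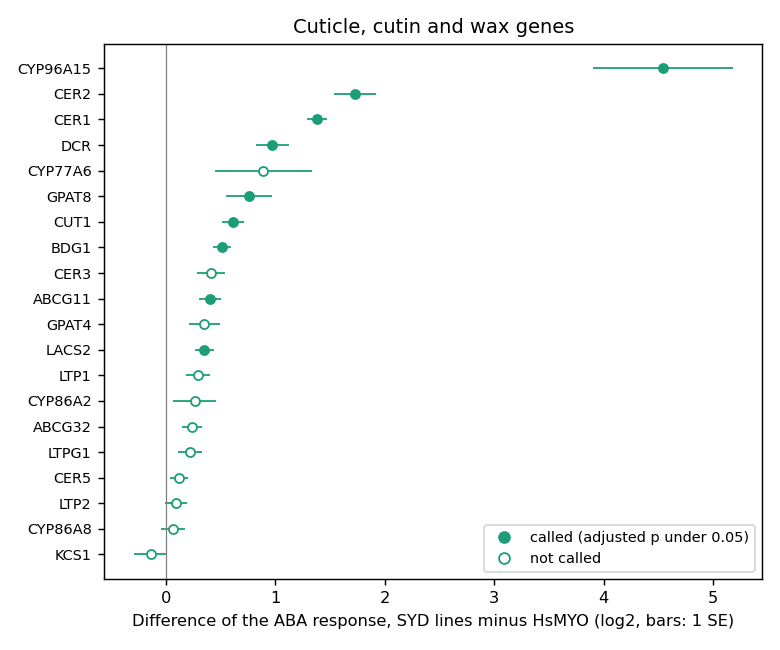
The difference of the ABA response, SYD lines minus HsMYO (horizontal axis, log2, bars 1 SE), is plotted for the 20 cuticle, cutin and wax genes tested; filled points passed the test. The 9 filled points lie between 0.35 and 4.54 and 1 open point lies below zero.

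Of 25 genes tested in a list of gibberellin synthesis and response, 4 had a response that lay higher in the SYD lines and none lower (16%, against 5.14% of all genes). The list median was -0.09, and 7 of the 25 differences were positive. GASA4, a gene that gibberellin raises, had 626 and 711 CPM in SYD1 and 592 and 695 CPM in SYD2 on ABA, against 197 and 198 CPM in HsMYO on ABA. Without ABA GASA4 had 644 and 770.5 CPM in SYD1 and 746 and 725 CPM in SYD2, against 406 and 452 CPM in HsMYO. Both SYD lines exceeded HsMYO in both media, and the SYD1 libraries on ABA overlapped those without ABA, while the SYD2 libraries on ABA lay below those without it. GASA4 responded by -0.08 in SYD1 and -0.19 in SYD2, against -1.12 in HsMYO, with no called response in SYD1 (adjusted p = 0.54) or SYD2 (adjusted p = 0.13), and the difference was 0.98 ± 0.12 (SE, adjusted p = 0.00024).

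The GA3-oxidases make the active gibberellins. GA3OX4, the third of them in the called set after GA3OX1 and GA3OX2, had 3.02 and 2.76 CPM in SYD1 and 3.62 and 4.52 CPM in SYD2 on ABA, against 1.01 and 1.37 CPM in HsMYO on ABA. Without ABA GA3OX4 had 1.41 and 1.22 CPM in SYD1 and 1.14 and 2.37 CPM in SYD2, against 1.81 and 1.30 CPM in HsMYO. Its SYD libraries lay above HsMYO on ABA and overlapped HsMYO without ABA. The response of GA3OX4 was 1.13 in SYD1 and 1.16 in SYD2, against -0.38 in HsMYO, a larger rise by class, and the difference was 1.53 ± 0.39 (SE, adjusted p = 0.032). This call was lost without HsMYO ethanol replicate 1 (1.29, adjusted p = 0.21), HsMYO ABA replicate 1 (1.32, 0.079), SYD1 ABA replicate 1 (1.53, 0.062), SYD1 ABA replicate 2 (1.57, 0.052), SYD1 ethanol replicate 1 (1.59, 0.051), SYD1 ethanol replicate 2 (1.48, 0.07) or SYD2 ABA replicate 2 (1.45, 0.061). GA3OX1 and GA3OX2 kept their calls without any single library, with differences of 1.44 ± 0.17 (SE, adjusted p = 0.00017) and 0.94 ± 0.09 (SE, adjusted p = 3e-05). For GA3OX1 the line difference was 1.00 on ABA and -0.44 without ABA, both called, and for GA3OX2 it was 0.86 on ABA and -0.08 without ABA, the second not called. The 21 gibberellin genes that were not called included the DELLA genes GAI, RGA1, RGL1, RGL2 and RGL3, the brakes on gibberellin signalling, with differences between -0.31 and 0.48, and the receptors GID1A, GID1B and GID1C, with differences between -0.38 and -0.08.

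Aquaporins are the water channels of the plasma membrane and the vacuole. Of 17 tested, 4 had a response that lay higher in the SYD lines and 1 lower (29.4%, against 5.14% of all genes), with a median of 0.28. The largest difference was that of TIP1;1 (GAMMA-TIP), with 2.56 ± 0.30 (SE, adjusted p = 0.00018). TIP1;1 responded by -4.25 in SYD1 and -3.6 in SYD2, against -6.49 in HsMYO. Leaving out 1 library gave differences of 2.3 to 2.77 for this gene. PIP2;1 (listed as PIP2A), of the plasma membrane, had 63.7 and 67.8 CPM in SYD1 and 56.7 and 69.1 CPM in SYD2 on ABA, against 32.9 and 23.1 CPM in HsMYO on ABA. Without ABA PIP2A had 262 and 254 CPM in SYD1 and 270.4 and 245 CPM in SYD2, against 183 and 182 CPM in HsMYO. The SYD libraries lay above the HsMYO libraries in both media. The difference of the response was 0.70 ± 0.15 (SE, adjusted p = 0.012) for PIP2A and 0.49 ± 0.09 (SE, adjusted p = 0.0031) for PIP1;3 (PIP1C), where the line difference was 0.59 on ABA and 0.11 without ABA, the second not called. TIP2;1 (DELTA-TIP), of the vacuole, differed by 1.22 ± 0.29 (SE, adjusted p = 0.021), a call lost without HsMYO ABA replicate 1 (1.16, adjusted p = 0.073), HsMYO ABA replicate 2 (1.29, 0.07) or HsMYO ethanol replicate 2 (1.02, 0.071). The one lower response was that of PIP1;1 (PIP1A), a larger fall by -0.47 ± 0.11 (SE, adjusted p = 0.017), with a line difference of 0.54 without ABA and 0.07 on ABA, the second not called; it was lost without HsMYO ethanol replicate 1 (-0.49, adjusted p = 0.058), HsMYO ethanol replicate 2 (-0.45, 0.078) or SYD1 ABA replicate 1 (-0.43, 0.064), and also by DESeq2 (-0.45, 0.079).

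Across all genes tested, the smaller falls with the lowest p under the naming rule were CER1, RTM2, SUS6, SAHH2 and CER2. SUS6, a sucrose synthase, had 13.6 and 15.3 CPM in SYD1 and 21.3 and 22.9 CPM in SYD2 on ABA, against 7.53 and 7.80 CPM in HsMYO on ABA. Without ABA SUS6 had 31.5 and 35.1 CPM in SYD1 and 33.5 and 38.6 CPM in SYD2, against 35.3 and 38.6 CPM in HsMYO. On ABA SYD2 lay above SYD1 and SYD1 above HsMYO, and all 3 lines overlapped or adjoined without ABA. The difference was 1.31 ± 0.12 (SE, adjusted p = 2.9e-05) for SUS6 and 1.61 ± 0.15 (SE, adjusted p = 2.9e-05) for RTM2, a protein with a small heat shock domain that limits the movement of a potyvirus. RTM2 had 10.8 and 13.1 CPM in SYD1 and 19.9 and 22.6 CPM in SYD2 on ABA, against 4.47 and 4.70 CPM in HsMYO on ABA. Without ABA RTM2 had 23.8 and 27.5 CPM in SYD1 and 29.4 and 31.7 CPM in SYD2, against 22.7 and 26.3 CPM in HsMYO. SYD2 was highest on ABA, SYD1 lay between SYD2 and HsMYO, and SYD1 overlapped HsMYO without ABA. SAHH2, an S-adenosylhomocysteine hydrolase of the methyl cycle, differed by 1.2 ± 0.12 (SE, adjusted p = 6.1e-05). It had 27.2 and 27.6 CPM in SYD1 and 30.3 and 36.7 CPM in SYD2 on ABA, against 24.3 and 23.3 CPM in HsMYO on ABA. Without ABA SAHH2 had 86.8 and 79.2 CPM in SYD1 and 95.4 and 77.2 CPM in SYD2, against 152 and 154 CPM in HsMYO. Here HsMYO without ABA stood above all other libraries, and on ABA the lines lay close together with HsMYO lowest.

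RHD2, an NADPH oxidase needed for root hair growth, was the 1 called gene among 15 root hair and root tip markers (6.67%, near the 5.14% of all genes). It does not stand for the list, whose median difference was -0.01. Only 7 of the 15 differences were positive, and they ranged from -3.56 to 3.64. Its counts on ABA were 26 in SYD1 and 33 in SYD2, against 1 in HsMYO, giving ratios of 35.8 (exact 95% counting interval 5.87 to 1470) for SYD1 and 42.1 (7.04 to 1710) for SYD2. Without ABA RHD2 had 20.1 and 21.0 CPM in SYD1 and 18.0 and 14.5 CPM in SYD2, against 7.81 and 7.40 CPM in HsMYO. Every SYD library exceeded every HsMYO library on the same medium, and the fitted difference, which depends on the prior count, was 3.64 ± 0.78 (SE, adjusted p = 0.013). It was no longer called without HsMYO ABA replicate 1 (2.76, adjusted p = 0.08) or by DESeq2 (4.03, adjusted p = 0.096), and was 5.69 without HsMYO ABA replicate 2 (0.034). The summed level of these 15 markers lay between 181.52 and 353.59 CPM in the SYD lines without ABA, against 160.52 and 160.59 CPM in HsMYO, and between 137.31 and 154.4 CPM in the SYD lines on ABA, against 131.83 and 135.8 CPM in HsMYO. These sums do not stand for the list. The median ABA response of the 15 markers was -3.96 in HsMYO and -4.73 in the SYD mean, a far steeper fall than that of the sums. The sums therefore follow the most abundant members. A larger share of root hair cells and more RNA per cell cannot be told apart in these bulk samples. The part of such cells in the smaller falls was not tested.

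Smaller rises were mostly genes that the SYD lines already held higher without ABA. HAI2, a clade A PP2C phosphatase, shows this form: it had 25.5 and 27.2 CPM in SYD1 and 24.7 and 25.5 CPM in SYD2 on ABA, against 25.2 and 25.4 CPM in HsMYO on ABA. Without ABA HAI2 had 5.58 and 4.81 CPM in SYD1 and 4.69 and 4.35 CPM in SYD2, against 1.99 and 1.93 CPM in HsMYO. All libraries on ABA lay within a narrow range, while without ABA the SYD libraries lay above HsMYO. The line difference for HAI2 was 0.02 on ABA (adjusted p = 0.83) and 1.30 ± 0.13 (SE, adjusted p = 2.3e-06) without ABA, and the difference of the response was -1.28 ± 0.15 (SE, adjusted p = 0.00017). Of 9 clade A PP2C genes, 3 had a response that lay lower in the SYD lines and none higher (33.3%, against 5.14% of all genes), with a median of -0.22. HAI3, a second of these, differed by -0.80 ± 0.16 (SE, adjusted p = 0.0087) and lost its call without HsMYO ethanol replicate 2 (-0.62, adjusted p = 0.1). The third, ABI1, belonged to the larger falls, with a difference of -0.71 ± 0.13 (SE, adjusted p = 0.0054) and a line difference of 0.59 on ABA and 1.30 without ABA.

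TBL38, of the family that acetylates cell wall polymers, had the lowest p of the smaller rises and differed chiefly on ABA. TBL38 had 4.14 and 4.41 CPM in SYD1 and 5.07 and 4.98 CPM in SYD2 on ABA, against 15.6 and 17.1 CPM in HsMYO on ABA. Without ABA TBL38 had 4.77 and 4.55 CPM in SYD1 and 5.98 and 6.69 CPM in SYD2, against 4.46 and 4.21 CPM in HsMYO. HsMYO on ABA stood above all other libraries, which lay between 4.14 and 6.69 CPM. The response was -0.12 in SYD1 and -0.34 in SYD2, against 1.91 in HsMYO, with a difference of -2.14 ± 0.15 (SE, adjusted p = 2.5e-06). ChiC, a chitinase, had 38.7 and 38.2 CPM in SYD1 and 45.7 and 43.0 CPM in SYD2 on ABA, against 58.4 and 54.0 CPM in HsMYO on ABA. Without ABA ChiC had 35.4 and 32.5 CPM in SYD1 and 30.5 and 30.5 CPM in SYD2, against 23.0 and 19.6 CPM in HsMYO. The SYD lines were the lower ones on ABA and the higher ones without it, with no overlap in either medium, and the difference was -1.04 ± 0.10 (SE, adjusted p = 3.5e-05). STS, annotated as a stachyose synthase of the raffinose sugar family, differed by -4.07 ± 0.45 (SE, adjusted p = 0.0001). It had 2.61 and 4.46 CPM in SYD1 and 3.22 and 3.01 CPM in SYD2 on ABA, against 6.05 and 5.88 CPM in HsMYO on ABA. Without ABA STS had 3.14 and 2.38 CPM in SYD1 and 1.83 and 1.15 CPM in SYD2, against 0.177 and 0.236 CPM in HsMYO. The ABA response of STS was 0.37 in SYD1 and 1.10 in SYD2, against 4.81 in HsMYO, and only in SYD2 and HsMYO was it called (adjusted p = 0.26 in SYD1).

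LEA14, a late embryogenesis abundant protein, was a smaller rise. It differed by -0.63 ± 0.12 (SE, adjusted p = 0.0049) and had 104 and 110.0 CPM in SYD1 and 98.9 and 93.0 CPM in SYD2 on ABA, against 88.1 and 81.3 CPM in HsMYO on ABA. Without ABA LEA14 had 19.1 and 16.8 CPM in SYD1 and 16.4 and 18.6 CPM in SYD2, against 10.5 and 8.82 CPM in HsMYO. SYD1 and SYD2 exceeded HsMYO in both media, by more without ABA; the call was lost without HsMYO ethanol replicate 2 (-0.50, adjusted p = 0.062). ADH1, alcohol dehydrogenase, differed by -1.39 ± 0.23 (SE, adjusted p = 0.0021) and had 122 and 139 CPM in SYD1 and 140.4 and 155 CPM in SYD2 on ABA, against 154 and 144 CPM in HsMYO on ABA. Without ABA ADH1 had 99.8 and 97.8 CPM in SYD1 and 171 and 90.2 CPM in SYD2, against 43.0 and 49.6 CPM in HsMYO. On ABA SYD2 overlapped HsMYO and SYD1 lay below both, and the SYD libraries lay above HsMYO without ABA.

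Larger rises were the smallest of the 4 unreversed classes, with 68 genes, and 3 of them were late maturation genes. In the list of late embryogenesis abundant (LEA) and late maturation genes, 3 of 14 had a response that lay higher in the SYD lines and 1 lower. This was 28.6%, against 5.14% of all genes, with a median of 0.26. LEA4-5 had 1568 and 1504 CPM in SYD1 and 1646 and 1464 CPM in SYD2 on ABA, against 2582 and 2082 CPM in HsMYO on ABA. Without ABA LEA4-5 had 30.0 and 28.4 CPM in SYD1 and 38.5 and 40.9 CPM in SYD2, against 116 and 75.0 CPM in HsMYO. HsMYO was highest in both media without overlap, and its 2 libraries without ABA lay apart from each other. The response was 5.72 in SYD1 and 5.29 in SYD2, against 4.61 in HsMYO, with a difference of 0.89 ± 0.18 (SE, adjusted p = 0.0089), and without HsMYO ethanol replicate 1 it was 0.55 (adjusted p = 0.055). LEA4-1 (listed as AtLEA4-1) differed by 0.87 ± 0.19 (SE, adjusted p = 0.014), or by 0.52 without that library (adjusted p = 0.11), and ECP63 by 1.37 ± 0.27 (SE, adjusted p = 0.0071), or by 0.80 without it (0.027). CYP707A2, an ABA 8′-hydroxylase that breaks ABA down in seeds, had 56.0 and 51.4 CPM in SYD1 and 51.0 and 49.0 CPM in SYD2 on ABA, against 64.8 and 67.9 CPM in HsMYO on ABA. Without ABA CYP707A2 had 7.47 and 7.61 CPM in SYD1 and 6.92 and 7.37 CPM in SYD2, against 15.1 and 13.9 CPM in HsMYO. HsMYO lay above both SYD lines in each medium without overlap, by more without ABA, and the difference of the response was 0.62 ± 0.10 (SE, adjusted p = 0.0015). It was the 1 called gene among 12 genes of ABA synthesis and breakdown (8.33%, against 5.14% of all genes).

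ABI3, a transcription factor of seed maturation, had 387 and 364 CPM in SYD1 and 365 and 353 CPM in SYD2 on ABA, against 330.4 and 342 CPM in HsMYO on ABA. Without ABA ABI3 had 123 and 118 CPM in SYD1 and 121 and 131 CPM in SYD2, against 199 and 156 CPM in HsMYO. The SYD libraries without ABA lay below HsMYO, and on ABA all SYD libraries lay above it, though by a line difference of 0.13 that was not called (adjusted p = 0.24). The difference of the response of ABI3 was 0.65 ± 0.12 (SE, adjusted p = 0.0032). AATP1, an AAA-type ATPase that had the lowest p of this class, had 2.76 and 2.85 CPM in SYD1 and 6.09 and 7.31 CPM in SYD2 on ABA, against 7.93 and 8.84 CPM in HsMYO on ABA. Without ABA AATP1 had 2.11 and 1.74 CPM in SYD1 and 3.56 and 3.09 CPM in SYD2, against 10.9 and 9.69 CPM in HsMYO. HsMYO lay above SYD2 and SYD2 above SYD1 in both media. The response of AATP1 was 0.54 in SYD1 and 1.02 in SYD2, against -0.30 in HsMYO, with a difference of 1.08 ± 0.18 (SE, adjusted p = 0.0025).

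3 further larger rises rested on few counts or on single libraries. MEE8 differed by 1.15 ± 0.27 (SE, adjusted p = 0.02), a call lost without HsMYO ethanol replicate 1 (0.72, adjusted p = 0.12) or SYD1 ethanol replicate 1 (1.03, 0.061). XTH25, of the xyloglucan-modifying family, differed by 2.93 ± 0.57 (SE, adjusted p = 0.0068), a call lost without HsMYO ethanol replicate 1 (2.50, 0.062). The response of XTH25 lay higher than in HsMYO by 2.53 in SYD1 and 3.34 in SYD2, but the levels of the 2 lines were unlike. Its line difference on ABA was 2.04 in SYD1 and -0.34 in SYD2, the second not called. Without ABA it was -0.49 in SYD1, not called, and -3.68 in SYD2, where XTH25 had 4 counts. BIP3, a chaperone of the endoplasmic reticulum that stress raises, differed by 2.58 ± 0.61 (SE, adjusted p = 0.022) and lay under 1 CPM in every library. Its call was lost without HsMYO ABA replicate 2 (2.28, 0.083), HsMYO ethanol replicate 1 (2.51, 0.1), HsMYO ethanol replicate 2 (2.67, 0.068), SYD1 ABA replicate 1 (2.41, 0.055) or SYD1 ethanol replicate 2 (2.45, 0.063).

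Among larger falls, PIF3, a transcription factor that phytochrome degrades in light, had 35.5 and 40.2 CPM in SYD1 and 41.8 and 43.0 CPM in SYD2 on ABA, against 51.1 and 56.8 CPM in HsMYO on ABA. Without ABA PIF3 had 102 and 111 CPM in SYD1 and 97.9 and 92.4 CPM in SYD2, against 58.0 and 68.8 CPM in HsMYO. The SYD lines lay below HsMYO on ABA and above it without ABA, with no overlap in either medium. The response was -1.49 in SYD1 and -1.17 in SYD2, against -0.23 in HsMYO, and the difference was -1.09 ± 0.11 (SE, adjusted p = 4.8e-05). SLAH3, an anion channel, had 1.12 and 1.10 CPM in SYD1 and 0.397 and 0.365 CPM in SYD2 on ABA, against 1.18 and 1.48 CPM in HsMYO on ABA. Without ABA SLAH3 had 6.23 and 5.60 CPM in SYD1 and 4.79 and 4.42 CPM in SYD2, against 1.90 and 2.13 CPM in HsMYO. SYD2 lay below SYD1 on ABA, where SYD1 lay just below HsMYO, and without ABA both SYD lines lay above HsMYO. The difference of the response of SLAH3 was -2.38 ± 0.28 (SE, adjusted p = 0.00018).

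UPI, a serine protease inhibitor of defence, fell by more in the SYD lines from a lower level. It had 0.153 and 0.184 CPM in SYD1 and 0.353 and 0.411 CPM in SYD2 on ABA, against 6.92 and 7.10 CPM in HsMYO on ABA. Without ABA UPI had 5.79 and 4.60 CPM in SYD1 and 6.28 and 4.93 CPM in SYD2, against 23.9 and 25.0 CPM in HsMYO. HsMYO stood above both SYD lines in each medium, and the difference was -2.56 ± 0.27 (SE, adjusted p = 7.9e-05). PCR2, a plasma membrane protein of zinc export, had 0.972 and 1.10 CPM in SYD1 and 1.10 and 0.822 CPM in SYD2 on ABA, against 7.02 and 7.66 CPM in HsMYO on ABA. Without ABA PCR2 had 11.3 and 13.1 CPM in SYD1 and 12.8 and 8.56 CPM in SYD2, against 18.9 and 23.9 CPM in HsMYO. HsMYO again stood above both SYD lines in each medium, and the difference was -1.94 ± 0.26 (SE, adjusted p = 0.00042). IOS1, a leucine-rich repeat receptor kinase of defence, differed by -2.93 ± 0.38 (SE, adjusted p = 0.00032), with a line difference of -2.0 on ABA and 0.93 without ABA. IOS1 and FRK1 were the called genes among 9 tested of a jasmonate, ethylene and defence list (22.2%, against 5.14% of all genes). Both had a response that lay lower in the SYD lines.

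Genes that loosen or remodel the cell wall were divided. Of 26 tested, 2 had a response that lay higher in the SYD lines and 3 lower (19.2%, against 5.14% of all genes), with a median of 0.08. The xyloglucan endotransglucosylase genes XTH4 and XTH9 fell less, by 0.52 ± 0.11 (SE, adjusted p = 0.013) and 0.92 ± 0.14 (SE, adjusted p = 0.001), while their relatives XTH18 and XTH24 fell more, by -0.54 ± 0.11 (SE, adjusted p = 0.0077) and -0.80 ± 0.16 (SE, adjusted p = 0.0083). XTH9 had 115 and 113 CPM in SYD1 and 99.7 and 90.5 CPM in SYD2 on ABA, against 51.1 and 38.4 CPM in HsMYO on ABA. Without ABA XTH9 had 285 and 248 CPM in SYD1 and 233 and 234 CPM in SYD2, against 219.8 and 187 CPM in HsMYO. The SYD libraries lay above HsMYO in both media. XTH24 had 2.51 and 2.71 CPM in SYD1 and 3.62 and 3.20 CPM in SYD2 on ABA, against 19.8 and 17.7 CPM in HsMYO on ABA. Without ABA XTH24 had 7.91 and 6.77 CPM in SYD1 and 8.30 and 6.94 CPM in SYD2, against 24.8 and 29.1 CPM in HsMYO. Here the SYD libraries lay below HsMYO in both media. The expansin EXPA1 fell in the SYD lines and had no called response in HsMYO (adjusted p = 0.13), with a difference of -0.75 ± 0.09 (SE, adjusted p = 0.00018). The call of XTH4 was lost without HsMYO ABA replicate 2 (0.36, adjusted p = 0.052) or HsMYO ethanol replicate 1 (0.51, 0.053), and that of XTH24 without HsMYO ethanol replicate 1 (-0.68, 0.052).

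The reversed genes included enzymes of the phenylpropanoid and flavonoid pathways, which make lignin precursors and flavonols. Of the 56 reversed genes, 39 rose and 17 fell on ABA in HsMYO, with a median absolute response of 0.32 in the SYD lines and 0.49 in HsMYO. Each line's own response was called with the sign opposite to HsMYO in 33 genes for SYD1, in 31 for SYD2 and in 16 for both. 4CL1, a 4-coumarate:CoA ligase, had 13.7 and 11.9 CPM in SYD1 and 16.4 and 14.8 CPM in SYD2 on ABA, against 28.4 and 28.1 CPM in HsMYO on ABA. Without ABA 4CL1 had 23.8 and 18.5 CPM in SYD1 and 16.9 and 15.5 CPM in SYD2, against 15.4 and 15.2 CPM in HsMYO. HsMYO on ABA stood above every other library. The response of 4CL1 was -0.73 in SYD1 and -0.05 in SYD2, against 0.88 in HsMYO, called in SYD1 and HsMYO and not in SYD2 (adjusted p = 0.75), and the difference was -1.27 ± 0.13 (SE, adjusted p = 8.5e-05).

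CHIL, a chalcone isomerase-like protein, had 26.9 and 26.5 CPM in SYD1 and 24.5 and 23.5 CPM in SYD2 on ABA, against 16.2 and 14.0 CPM in HsMYO on ABA. Without ABA CHIL had 28.1 and 26.1 CPM in SYD1 and 20.3 and 17.9 CPM in SYD2, against 28.0 and 26.4 CPM in HsMYO. HsMYO on ABA was below every other library, and SYD2 without ABA lay below SYD1 and HsMYO. The response of CHIL was -0.02 in SYD1 and 0.33 in SYD2, against -0.84 in HsMYO, with a difference of 1.00 ± 0.11 (SE, adjusted p = 0.0001). TT5, chalcone isomerase, had 23.3 and 26.7 CPM in SYD1 and 23.0 and 23.1 CPM in SYD2 on ABA, against 18.1 and 16.8 CPM in HsMYO on ABA. Without ABA TT5 had 22.6 and 21.2 CPM in SYD1 and 16.0 and 14.0 CPM in SYD2, against 25.5 and 23.8 CPM in HsMYO. HsMYO was lowest on ABA and highest without ABA, with a difference of 0.90 ± 0.11 (SE, adjusted p = 0.00021).

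A list of 25 phenylpropanoid and flavonoid genes was drawn up after these values had been seen, so its counts are not independent evidence. Of 24 tested, 5 had a response that lay higher in the SYD lines and 8 lower (54.2%, against 5.14% of all genes), and the median was -0.36. By class, 4 were smaller, 3 larger and 6 reversed responses. The lower responses were those of the early steps, PAL1 (-1.50), PAL2 (-0.65), C4H (-0.46), 4CL1 and 4CL2 (-2.15), of the lignin branch enzymes HCT (-0.82) and CCoAOMT1 (-0.70), and of the flavonoid hydroxylase TT7 (-0.91), all log2 differences. The higher ones were those of the flavonoid steps TT4 (0.74), TT5, CHIL and FLS1 (0.42), and of the ligase 4CL3 (1.08). PAL1, the entry enzyme, had 16.7 and 17.38 CPM in SYD1 and 15.6 and 18.0 CPM in SYD2 on ABA, against 32.5 and 30.4 CPM in HsMYO on ABA. Without ABA PAL1 had 18.7 and 12.7 CPM in SYD1 and 8.20 and 9.03 CPM in SYD2, against 8.30 and 7.05 CPM in HsMYO. HsMYO on ABA stood above every other library, and SYD2 without ABA overlapped HsMYO without ABA. The response of PAL1 was 0.12 in SYD1 and 0.96 in SYD2, against 2.04 in HsMYO. 4CL2 had 1.33 and 1.33 CPM in SYD1 and 1.85 and 1.14 CPM in SYD2 on ABA, against 4.47 and 4.55 CPM in HsMYO on ABA. Without ABA 4CL2 had 3.47 and 2.64 CPM in SYD1 and 2.17 and 1.62 CPM in SYD2, against 1.59 and 1.81 CPM in HsMYO. HsMYO on ABA again stood above every other library, and the adjusted p of the difference was 0.00045.

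Several of these calls depended on 1 library. PAL2 lost its call without HsMYO ethanol replicate 1 (-0.63, adjusted p = 0.059), TT7 without HsMYO ethanol replicate 2 (-0.89, 0.055) and FLS1 without HsMYO ethanol replicate 2 (0.41, 0.062). C4H lost it without HsMYO ABA replicate 1, either HsMYO ethanol replicate, SYD1 ABA replicate 1, SYD1 ethanol replicate 1, SYD2 ABA replicate 1 or SYD2 ethanol replicate 1, with adjusted p between 0.056 and 0.11 and differences between -0.47 and -0.33. 4CL3 lost it without HsMYO ABA replicate 1, either HsMYO ethanol replicate, SYD1 ABA replicate 1, SYD1 ethanol replicate 1, SYD2 ABA replicate 2 or SYD2 ethanol replicate 2, with adjusted p between 0.052 and 0.11 and differences between 0.90 and 1.12.

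PRN, the cupin protein pirin, had 0.869 and 1.24 CPM in SYD1 and 0.838 and 0.959 CPM in SYD2 on ABA, against 3.09 and 3.18 CPM in HsMYO on ABA. Without ABA PRN had 4.71 and 3.44 CPM in SYD1 and 2.03 and 1.76 CPM in SYD2, against 1.32 and 1.54 CPM in HsMYO. The SYD lines were below HsMYO on ABA and above it without ABA, with no overlap in either medium. The response of PRN was -1.93 in SYD1 and -1.06 in SYD2, against 1.13 in HsMYO, called in each line, with a difference of -2.62 ± 0.29 (SE, adjusted p = 0.00012). ZIF1, a vacuolar transporter of zinc tolerance, differed by -0.95 ± 0.11 (SE, adjusted p = 0.00017). It had 45.7 and 39.7 CPM in SYD1 and 44.0 and 43.2 CPM in SYD2 on ABA, against 42.0 and 37.0 CPM in HsMYO on ABA. Without ABA ZIF1 had 51.8 and 44.5 CPM in SYD1 and 51.8 and 51.8 CPM in SYD2, against 24.2 and 23.3 CPM in HsMYO. On ABA SYD1 overlapped HsMYO and SYD2 lay just above it, and HsMYO without ABA stood below every other library. NIC3, a nicotinamidase, had 42.4 and 35.0 CPM in SYD1 and 31.8 and 35.5 CPM in SYD2 on ABA, against 16.4 and 15.1 CPM in HsMYO on ABA. Without ABA NIC3 had 59.5 and 67.2 CPM in SYD1 and 43.3 and 47.2 CPM in SYD2, against 11.3 and 10.8 CPM in HsMYO. The SYD lines lay above HsMYO in both media, by more without ABA, with a difference of -1.09 ± 0.13 (SE, adjusted p = 0.00021). FRK1, a receptor kinase that defence signals raise, differed by -2.15 ± 0.46 (SE, adjusted p = 0.012), with no call in SYD2 alone (response -0.16, adjusted p = 0.81) and none for the difference without HsMYO ethanol replicate 1 (-1.85, 0.071).

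**Figure D5:**
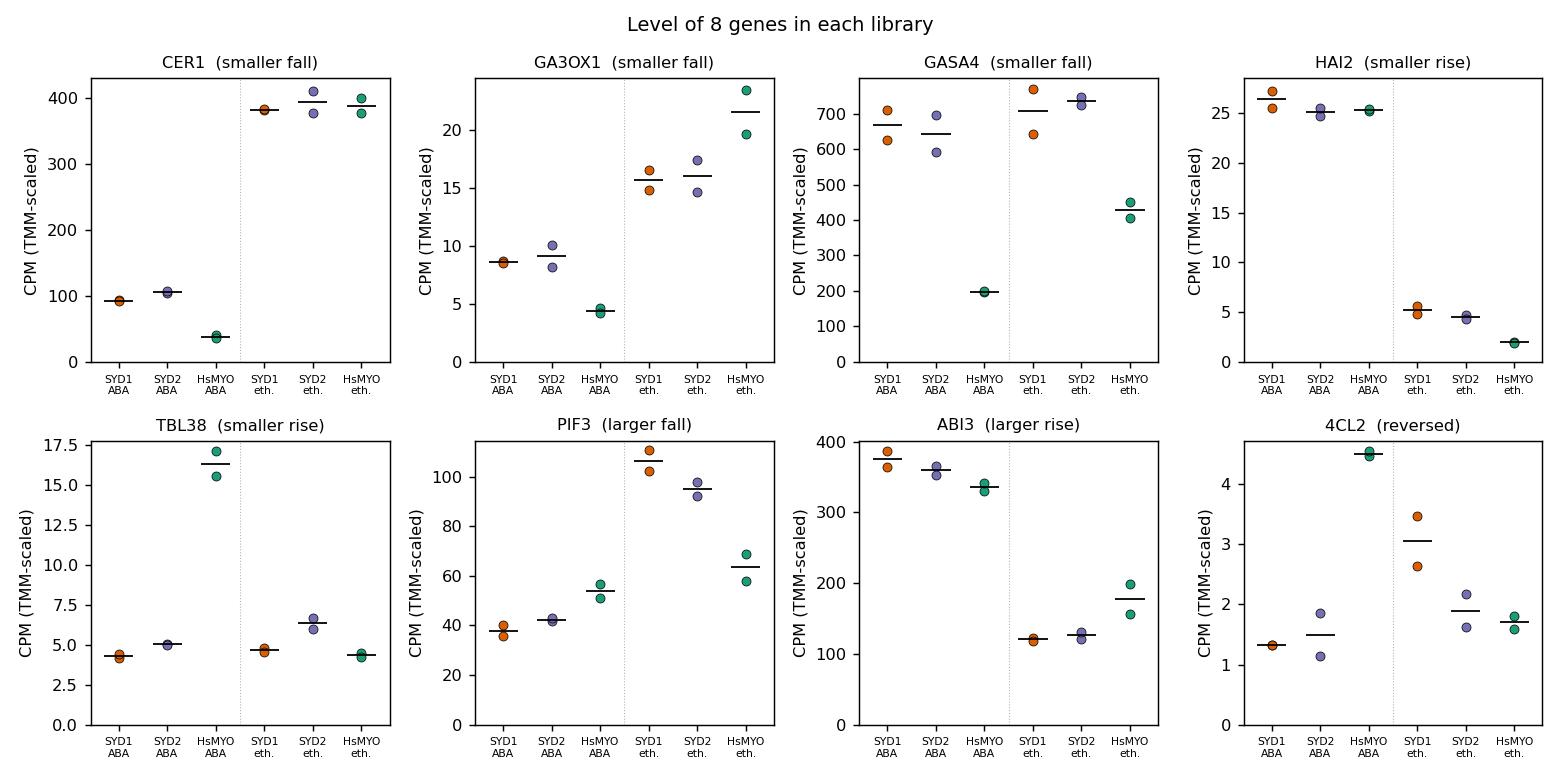
Levels (CPM, linear axis from zero) of 8 genes are shown in each library, with 2 points per group and a line at their mean, on ABA to the left of the dotted line and without ABA to its right; the class stands beside the gene name. CER1 differs between the lines on ABA, HAI2 without ABA and PIF3 in both media with opposite signs.

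Of 14 genes tested for ABA receptors and SnRK2 kinases, 2 had a response that lay higher in the SYD lines and none lower (14.3%, against 5.14% of all genes), with a median of -0.17. These were the receptors PYL6, with a difference of 0.64 ± 0.14 (SE, adjusted p = 0.016), and PYL4, with 0.33 ± 0.09 (SE, adjusted p = 0.034), and both fell less. PYL6 had 8.80 and 10.5 CPM in SYD1 and 8.65 and 10 CPM in SYD2 on ABA, against 4.44 and 4.99 CPM in HsMYO on ABA. Without ABA PYL6 had 56.9 and 57.3 CPM in SYD1 and 64.2 and 67.9 CPM in SYD2, against 43.2 and 51.8 CPM in HsMYO. The SYD libraries lay above HsMYO in both media. PYL6 lost its call without HsMYO ABA replicate 1 (0.56, adjusted p = 0.068) or HsMYO ethanol replicate 2 (0.51, 0.07), and PYL4 kept it without HsMYO ABA replicate 1, HsMYO ABA replicate 2, SYD1 ethanol replicate 2, SYD2 ethanol replicate 1 or SYD2 ethanol replicate 2 and lost it without any other library. Among 18 ABA-linked transcription factors and their partners, ABI3 and FUS3 were called (11.1%), with a median of 0.02. FUS3 lay under 2 CPM in every library, differed by -1.98 ± 0.54 (SE, adjusted p = 0.046) and kept its call without HsMYO ABA replicate 1 or SYD1 ethanol replicate 1, and lost it without any other library and by DESeq2 (adjusted p = 0.091). In a list of 13 ABA and dehydration effectors, RD22 (0.75 ± 0.13 (SE, adjusted p = 0.0022)) and P5CS1 (0.93 ± 0.14 (SE, adjusted p = 0.00079)), an enzyme of proline synthesis, fell less, ADH1 rose less, and the median was -0.20 (23.1% called).

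In the auxin list 3 of 18 were called (16.7%, against 5.14% of all genes). The carrier LAX3 (1.42 ± 0.28 (SE, adjusted p = 0.0073)) fell less, and GH3.3 (-1.62 ± 0.35 (SE, adjusted p = 0.013)), an auxin conjugase, fell more. The carrier PIN7 differed by 0.54 ± 0.13 (SE, adjusted p = 0.021) and responded by 0.09 in SYD1 and 0.27 in SYD2, against -0.36 in HsMYO, called in SYD2 and HsMYO and not in SYD1 (adjusted p = 0.54). LAX3 lost its call without HsMYO ABA replicate 2 (1.13, adjusted p = 0.052), and GH3.3 without HsMYO ABA replicate 1 (-1.02, 0.12) or SYD1 ABA replicate 1 (-1.54, 0.051). PIN7 lost its call without HsMYO ABA replicate 2 (0.41, 0.092), either HsMYO ethanol replicate (0.082 without replicate 1 and 0.063 without replicate 2) or SYD2 ABA replicate 1 (0.05). In the cell cycle and DNA replication list 2 of 28 were called (7.14%, against 5.14% of all genes), KN (SYP111), the syntaxin of the cell plate, and the Aurora kinase AUR1. Their differences were 0.71 ± 0.19 (SE, adjusted p = 0.038) and 0.63 ± 0.17 (SE, adjusted p = 0.048), the list median was 0.21 and 24 of 28 differences were positive. KN lost its call in 8 and AUR1 in 10 of the 12 fits without 1 library, down to 0.50 for KN (adjusted p = 0.17) and 0.41 for AUR1 (0.2) without HsMYO ABA replicate 2, and AUR1 also lost it by DESeq2 (0.66, 0.075). Of 4 heat shock genes, the small heat shock gene AT5G12030 was called (25% of the list; 2.49 ± 0.61 (SE, adjusted p = 0.027)), with 1.51 (0.29) without HsMYO ethanol replicate 1 and no call without HsMYO ABA replicate 1 (0.066), SYD1 ethanol replicate 2 (0.057) or SYD2 ABA replicate 1 (0.074). In the raffinose list of 6, SIP2 was called beside STS (33.3%), with -0.35 ± 0.09 (SE, adjusted p = 0.04), and kept its call in 2 of the 12 fits without 1 library, those without HsMYO ABA replicate 1 and without SYD2 ethanol replicate 2.

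No gene was called by edgeR's test among 31 of photosynthesis and greening (median difference -0.04), 17 of reserve mobilisation (-0.00), 13 of seed storage and oil bodies (0.34), 12 SWI/SNF subunits (0.07) or 12 of Polycomb repression (0.02). The same held for the markers tested of the shoot meristem (6), the endosperm (5) and the seed coat (2). Since 5.14% of all genes were called, lists this short would hold few or no called genes at that share. A count of 0 thus does not show equal responses. The differences of the seed storage and oil body genes ranged from -1.07 to 1.53. On ABA the summed level of the 9 endosperm markers lay between 2504.56 and 3725.94 CPM in the SYD lines, against 1985.91 and 2404.47 CPM in HsMYO. Without ABA it lay between 1793.34 and 3130.16 CPM in the SYD lines, against 3911.3 and 2364.66 CPM in HsMYO. EPR1 alone made up nearly all of this sum, with 3894 CPM in HsMYO ethanol replicate 1 and 1786 CPM in SYD2 ethanol replicate 2. The sum thus gives the level of that gene and not of the marker set. Of the 6 seed coat markers, 1 was at 0 in every library. On ABA their summed level lay between 33.38 and 42.92 CPM in the SYD lines, against 45.82 and 46.41 CPM in HsMYO. Without ABA it lay between 45.82 and 50.75 CPM in the SYD lines, against 75.09 and 76.38 CPM in HsMYO. The SYD libraries thus lay below HsMYO in both media. The part of seed coat RNA in the line differences on either medium was not tested.

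Each line was also set against HsMYO alone. The response differed in 557 genes for SYD1 (2.84%) and in 726 for SYD2 (3.7%); both comparisons use the same HsMYO libraries. The SYD1 count was 229, 297, 311 and 275 without SYD1 ABA replicate 1, SYD1 ABA replicate 2, SYD1 ethanol replicate 1 and SYD1 ethanol replicate 2 in turn, 312 without HsMYO ethanol replicate 1 and 891 without HsMYO ABA replicate 1. The SYD2 count was 435 and 412 without SYD2 ABA replicates 1 and 2, 447 without HsMYO ethanol replicate 1 and 1222 without HsMYO ABA replicate 1.

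The response of SYD1 minus that of SYD2, a comparison that uses no HsMYO library, was called for 0 genes by edgeR's test, with 841 genes at an unadjusted p under 0.05, and for 6 genes by DESeq2. That count was 1 without SYD1 ABA replicate 1, 13 without SYD2 ABA replicate 1 and 10 without SYD2 ethanol replicate 1. A missed threshold does not show equal responses. PAL1 differed between the lines by -0.84 ± 0.21 (SE, adjusted p = 0.84), 4CL1 by -0.67 ± 0.16 (SE, adjusted p = 0.84) and RTM2 by -0.57 ± 0.16 (SE, adjusted p = 0.87), while CER1 differed by -0.15 ± 0.10 (SE, adjusted p = 1) and GA3OX1 by -0.04 ± 0.19 (SE, adjusted p = 1). None of these 5 passed the test.

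Called genes were spread over the 5 nuclear chromosomes, at 4.84% of tested genes on chromosome 2 to 5.49% on chromosome 4. Just inside the threshold lay KCS16 (0.41, adjusted p = 0.04985), CKB4 (-0.36, 0.04984) and IQD17 (0.32, 0.04968), and just outside it lay AGP12 (-0.60, 0.05002).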

How the data were processed

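RNA was sequenced from seeds in 12 libraries. Raw counts per gene were deposited by the authors and used unchanged. Per the submitters' processing notes, Trimmomatic 0.39, STAR 2.7.10a and the TAIR10 genome were used; the sources used here do not name the counting program, strand setting, treatment of reads with several matches or annotation, so values of near-identical, overlapping or antisense genes are uncertain. Per the labels' protocols the libraries were stranded. Of 36795 entries, 10729 were 0 throughout; 36632 matched the TAIR10.1 annotation, which gave names and positions.

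Counts were fitted with edgeR 4.0.16 in R 4.3.3 (filterByExpr with a minimum count of 10, TMM scaling, 1 mean per group, 6 residual degrees of freedom, quasi-likelihood F test, Benjamini-Hochberg over 19612 genes, threshold 0.05). The common biological coefficient of variation was 6.3%. CPM are counts divided by the TMM-scaled library size and multiplied by 1e+06. A count of 3 equals 0.101 to 0.162 CPM.

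A called gene was reversed where the responses of HsMYO and of the SYD mean were both called with opposite signs, smaller where HsMYO was called and the SYD mean was nearer 0, and larger where the SYD mean was called and farther from 0. Genes named were the 5 with the lowest p per unreversed class among those with a difference of at least 1 (log2), a symbol and the same sign in both lines, the 6 reversed genes with the lowest p, called members of 24 lists (396 genes), and a phenylpropanoid list made after values were seen. Members and lists were chosen with earlier results of these data known. The fit was tested on simulated counts. The labels state no pairing of replicate numbers, so the main fit used none. Residual correlations of same replicate numbers lay between -0.03 and 0.15 over 15 pairs of groups (median 0.07, 2 above 0.1). These small values do not exclude a shared replicate effect. Alternatives were RLE or total-count scaling, other filters, DESeq2 1.42.0, a replicate block, adjusted p under 0.01 and leaving out each library.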

Additional observations from a re-analysis of the deposited data

Results flagged for a closer look

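The ABA response differed between the SYD lines and HsMYO by a test of the difference itself in 1008 genes. For 10 of the named genes the responses of HsMYO and of the SYD mean were also both called, with opposite directions. The log2 difference was -1.27 for 4CL1, 1.00 for CHIL, -2.62 for PRN, -0.95 for ZIF1, -1.09 for NIC3, 0.90 for TT5, -2.15 for FRK1, -2.15 for 4CL2, -0.82 for HCT and 0.74 for TT4. Other named genes, such as TBL38 and GA3OX4, had opposite signs without both responses being called. In 4CL1, 4CL2, HCT, PRN, ZIF1, NIC3 and FRK1 the SYD mean fell on ABA while HsMYO rose. In CHIL, TT4 and TT5 the SYD mean rose while HsMYO fell. The mean did not always hold for each line by edgeR's test. In SYD1 the response was not called for CHIL (-0.02, adjusted p = 0.86), TT5 (0.19, 0.099) or ZIF1 (-0.17, 0.12). Among those not called in SYD2 were FRK1 and 4CL1 (-0.05, 0.75). The response of 4CL2 was -1.19 in SYD1 and only -0.31 in SYD2, against 1.4 in HsMYO. PRN and NIC3 were called in both SYD lines.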

How the results depend on the processing

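Each group had 2 libraries, and leaving out 1 library gave 540 to 1584 differing genes (main 1008), 294 to 918 higher and 246 to 666 lower responses in the SYD lines, 390 to 1150 smaller, 119 to 333 larger and 30 to 86 reversed responses, 202 to 581 line differences on ABA only, 122 to 486 without ABA only and 190 to 499 in both media, 229 to 891 genes for SYD1, 412 to 1222 for SYD2 and 0 to 13 for SYD1 minus SYD2. The replicate block treats same-numbered libraries as paired, which the labels do not state. With it the counts in the same order were 1628, 872, 756, 1099, 429, 98, 542, 485, 596, 912 and 1254. With no low-count filter they were 1817 differing genes, 1125 higher, 1240 smaller, 493 larger, 616 on ABA only, 510 without ABA only, 670 in both media, 1216 for SYD1, 1518 for SYD2 and 110 for SYD1 minus SYD2. At an adjusted p under 0.01 they were 443 differing, 233 higher, 210 lower, 308 smaller, 113 larger, 20 reversed, 172 on ABA only, 126 without ABA only, 142 in both media, 228 for SYD1 and 308 for SYD2. DESeq2 called 848 genes, and 6 for SYD1 minus SYD2. The share of higher responses was 52.3% with TMM, 57.6% with RLE scaling, 57.7% with DESeq2 and 61.9% with no filter, and without 1 library it ranged from 46.6% without HsMYO ABA replicate 2, where lower responses were the majority, to 62.4% without SYD2 ethanol replicate 1. The stricter counts follow from the threshold itself; the cause of the other shifts was not tested. Of 78 called genes that were named, 71 had a value in 18 settings that kept the threshold at 0.05, and 45 of these kept their call in all; 7 had a value in 17, and 1 of these, PRN, kept it in all. The other 32 lost it in at least 1 setting, 26 of 78 were not called at an adjusted p under 0.01, and 0 changed sign.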
